A study of Mus musculus with 4 samples.

Results

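The Bcl2 family decides whether a cell with a damaged or starved interior lives or dies, and 10 of its genes were followed here: Bcl2, Bcl2l1, Mcl1, Bax, Bak1, Bid, Bad, Bcl2l11, Bbc3 and Pmaip1. Members were taken by symbol, using every probe set that the platform annotation pairs with that symbol alone. This gave 9 of the 10 genes, with 29 of the 45101 probe sets on the array. Bax had no such probe set in the annotation used and was not analysed here. For each gene the main value is that of its brightest probe set by mean over all 4 arrays, which places 9 members among 18194 genes tested.

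Expression was measured on 4 Affymetrix arrays, 2 labelled Alox15-/- and 2 labelled WT. Both groups came from C57BL/6 mice aged 8 weeks. In each, bone marrow cells were sorted for absence of lineage markers and presence of c-Kit and Sca-1, a gate that holds blood stem cells together with multipotent progenitors and that the labels call HSCs. The Alox15-/- group is named for loss of Alox15, the gene of arachidonate 15-lipoxygenase, and no further allele, agent or treatment is named for either group. The labels call the replicates biological but name no animals or pools, so p-values measure the spread between these arrays, which may be partly technical.

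The Alox15 probe set went against the label. It read 10.68 and 10.75 on the arrays labelled Alox15-/-, against 4.63 and 4.35 in WT, on the deposited log2 scale that every value here uses. The WT values lay below the brightest of 27 control probe sets for bacterial genes, a yardstick of background called the bacterial limit below, which read 5.17 and 5.08 on the arrays labelled Alox15-/- and 4.99 and 4.95 in WT. Where the deletion and the probe set lie in the gene was not used here. Directions below are those of the labels, and every sign below would turn if the labels of the groups were exchanged. Kit, the gene of the gate's c-Kit, read 10.34 and 10.23 on the arrays labelled Alox15-/-, against 10.63 and 10.48 in WT (difference -0.27, limma adjusted p = 0.695). Ly6a, the gene of Sca-1, was not analysed here. Of 5 further stem and progenitor markers 0 passed the threshold, and groups did not overlap for 3, against 38.5% of all genes. Of these markers 1, Cd48, had an unadjusted limma p under 0.05, against 7.77% of all genes. Cd48, which marks progenitors more than stem cells, differed by 0.43 (limma adjusted p = 0.611, from an unadjusted 0.0225), Slamf1 by 0.32 and Procr by -0.25, while Cd34 differed by 0.06 and Flt3 by -0.03. The Gapdh control probe set for the transcript's 3' end read above that for the 5' end on every array. The gap was 2.14 and 2.17 on the arrays labelled Alox15-/-, against 2.37 and 2.39 in WT, with no overlap. For Actb the 3' minus 5' gap was -0.13 and -0.28 on the arrays labelled Alox15-/-, against -0.23 and -0.19 in WT. The Actb groups overlapped.

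Death through this family runs over the outer mitochondrial membrane. The effector proteins Bax and Bak1 form pores there that release cytochrome c, the survival proteins Bcl2, Bcl2l1 (Bcl-xL) and Mcl1 hold them in check, and the BH3-only proteins Bid, Bad, Bcl2l11 (Bim), Bbc3 (Puma) and Pmaip1 (Noxa) carry death signals that bind the survival proteins or engage the effectors directly. In mice, blood stem cells are lost when Mcl1 is deleted, and Bcl2 expressed from a transgene enlarges the stem cell pool. Much of the control of these proteins lies in their turnover and phosphorylation, which an array of transcripts does not measure.

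None of the 9 measured members differed between the groups past the threshold, an adjusted p under 0.05 by limma over all genes tested. Their adjusted p ran from 0.675 to 0.996, and 0 of 9 had an unadjusted limma p under 0.05. Of all genes, 0.0055% passed the adjusted threshold and 7.77% the unadjusted one. The largest difference was that of the pore-forming effector Bak1, 0.40 higher on the arrays labelled Alox15-/-, and the most negative was that of the BH3-only gene Bad, at -0.30. The other 7 members lay between -0.08 and 0.13. The median difference of the members was -0.005, against 0.019 over all genes, and the median size of the difference was 0.076, against 0.14. The 95% interval of the difference lay inside -1 to 1, a change of less than 2-fold either way, for 9 of 9 members and for 91.3% of all genes. At these main probe sets the members' lowest bound was -0.82, for Bad, and their highest 0.85, for Bak1. In the fit over all named probe sets, the bounds at their 29 probe sets ran from -1.22, for Bcl2l1, to 1.22, for Bcl2l11. Not every interval thus lay inside -1 to 1. Pmaip1, 1 of the 9, lay below the bacterial limit on all 4 arrays. The plot of the members by array shows the values at the main probe sets.

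**Figure D1:**
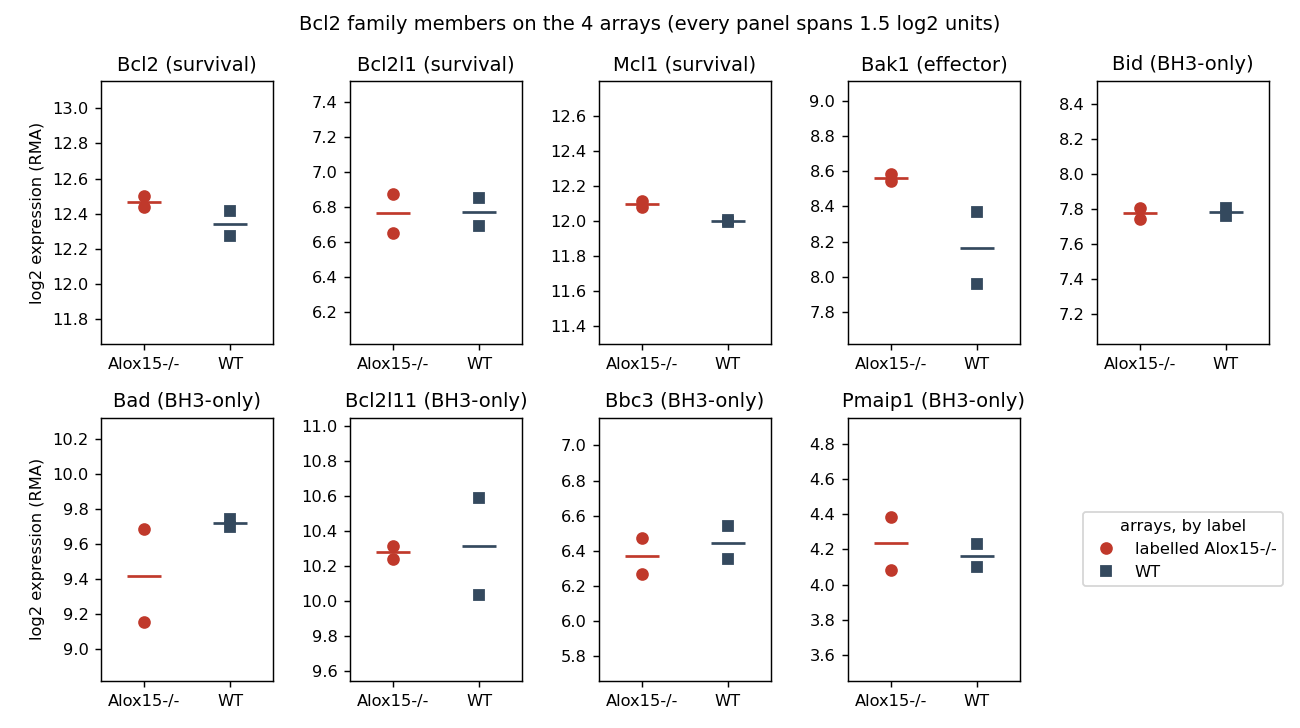
Log2 expression (RMA) of the 9 measured Bcl2 family members at their main probe set, with the arrays labelled Alox15-/- as circles on the left of each panel, WT as squares on the right, and group means as bars. Every panel spans 1.5 log2 units. Bak1 is the member with the widest gap between means (0.40), and Bad shows 1 array labelled Alox15-/- (9.15) below the other 3 (9.69 to 9.74).

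Of the survival genes, Bcl2, the founding member and a guard of the mitochondrial membrane, read 12.50 and 12.44 on the arrays labelled Alox15-/-, against 12.41 and 12.27 in WT. Both arrays labelled Alox15-/- lay above both WT arrays, by a margin of hundredths, and the difference was 0.13 ± 0.13 (SE, 2 arrays each; 95% interval -0.21 to 0.46; limma adjusted p = 0.851). In a mixture of cells, fewer cells that carry a transcript and less of it in each cell cannot be told apart.

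Mcl1, the short-lived survival protein on which blood stem cells depend, read 12.11 and 12.08 on the arrays labelled Alox15-/-, against 11.99 and 12.01 in WT. The groups did not overlap and the replicates lay close together, with a gap of 0.03 between the arrays labelled Alox15-/- and 0.02 between the WT arrays. The difference was 0.10 ± 0.13 (95% interval -0.22 to 0.41; limma adjusted p = 0.883), an SE that limma sets mainly from the spread over all genes. The main probe set of Mcl1 carries the suffix that Affymetrix gives to probe sets whose probes may also bind other transcripts.

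Bcl2l1, whose long form protects maturing red cells and platelets, read 6.66 and 6.88 on the arrays labelled Alox15-/-, against 6.85 and 6.69 in WT. The groups overlapped fully, with a difference of -0.005 ± 0.15 (95% interval -0.38 to 0.37; limma adjusted p = 0.996).

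Bak1 was the one effector measured. It read 8.55 and 8.58 on the arrays labelled Alox15-/-, against 8.37 and 7.96 in WT. Both arrays labelled Alox15-/- lay above both WT arrays, and the WT arrays were 0.41 apart. The difference was 0.40 ± 0.18 (95% interval -0.05 to 0.85; limma adjusted p = 0.675, from an unadjusted 0.0703), and it was 0.195 without WT replicate 2 and 0.605 without WT replicate 1. A second Bak1 probe set read 7.73 and 8.06 on the arrays labelled Alox15-/-, against 7.35 and 7.75 in WT, a difference of the same sign (0.34) with groups that overlapped.

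The 3 genes outside the family whose values, centred on each gene's own mean, lay nearest to those of Bak1 over the 4 arrays were Tpd52l1, Ssbp4 and Ulbp1. Their Euclidean distances to Bak1 were 0.0135, 0.0270 and 0.0358 log2 units. Near neighbours of this kind are easily found among 18194 genes on 4 arrays.

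Among the BH3-only genes, Bad, which growth factor kinases silence by phosphorylation, read 9.15 and 9.69 on the arrays labelled Alox15-/-, against 9.74 and 9.70 in WT. Replicate 1 of the arrays labelled Alox15-/- stood apart, while replicate 2 lay 0.01 below the lower WT array. The difference was -0.30 ± 0.21 (95% interval -0.82 to 0.22; limma adjusted p = 0.765), and without Alox15-/- replicate 1 it was -0.03. The second Bad probe set read 8.44 and 8.52 on the arrays labelled Alox15-/-, against 8.10 and 8.58 in WT, with a difference of the other sign (0.14).

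Bcl2l11 encodes Bim, which kills blood cells deprived of cytokines. It read 10.32 and 10.24 on the arrays labelled Alox15-/-, against 10.59 and 10.03 in WT, where the replicates were 0.56 apart and enclosed both arrays labelled Alox15-/-. The difference was -0.03 ± 0.21 (95% interval -0.57 to 0.50; limma adjusted p = 0.979). Without WT replicate 1 it was 0.25, and without WT replicate 2 it was -0.31.

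Bid, which caspase-8 cleaves after death receptors are engaged, read 7.74 and 7.81 on the arrays labelled Alox15-/-, against 7.76 and 7.81 in WT. It was the member with the narrowest spread among the BH3-only genes, and the groups overlapped (difference -0.01 ± 0.13; 95% interval -0.33 to 0.31; limma adjusted p = 0.991).

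Bbc3 and Pmaip1, both targets of p53 in the response to DNA damage, had 1 probe set each. Bbc3 read 6.47 and 6.27 on the arrays labelled Alox15-/-, against 6.54 and 6.35 in WT, with a difference of -0.08 ± 0.15 (95% interval -0.46 to 0.30; limma adjusted p = 0.926). Its groups overlapped. Pmaip1 read 4.09 and 4.39 on the arrays labelled Alox15-/-, against 4.23 and 4.10 in WT, below the bacterial limit on all 4 arrays, so it was not measured above background in either group (limma adjusted p = 0.935). The other 8 members lay above that limit on all 4 arrays at their main probe set.

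Groups did not overlap for 4 of the 9 members (44.4%), against 38.5% of all genes. Bcl2, Mcl1 and Bak1 were the 3 with both arrays labelled Alox15-/- higher, against 21.4% of all genes, and Bad was the 1 with both lower, against 17.1%. These shares are near those of all genes.

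Set side by side by role, the members' mean deviation from each gene's own mean was 0.02 and 0.06 on the arrays labelled Alox15-/-, against 0.01 and -0.08 in WT, for the 3 survival genes. For the 5 BH3-only genes it was -0.10 and 0.03 on the arrays labelled Alox15-/-, against 0.12 and -0.05 in WT. The means of the groups thus differed by 0.07 for the survival genes and by -0.07 for the BH3-only genes, and in both roles the groups' arrays overlapped or lay within 0.01 of each other. For the effector role, with Bak1 alone, the means differed by 0.40. Among the BH3-only genes Bad lay furthest from 0, at -0.30. The others lay between -0.08 and 0.07, with Pmaip1 below the bacterial limit. The gap between the 2 arrays of a group had a median over the members of 0.075 on the arrays labelled Alox15-/- and 0.14 in WT, against 0.15 and 0.19 over all genes.

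Several probe sets read the same gene for 7 of the 9 members, and they did not all give 1 direction. For 6 of the 7, Bak1 being the exception, probe sets of the gene had differences of both signs, against 56.3% of the 9012 genes with more than 1 probe set. Over all 29 probe sets, 0 passed an adjusted p under 0.05 (0.00572% of all named probe sets did), 2 had an unadjusted limma p under 0.05 (against 7.7%) and 12 had groups that did not overlap (41.4%, against 38.4%). Positions of the probe sets within the transcripts were not used here.

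**Figure D2:**
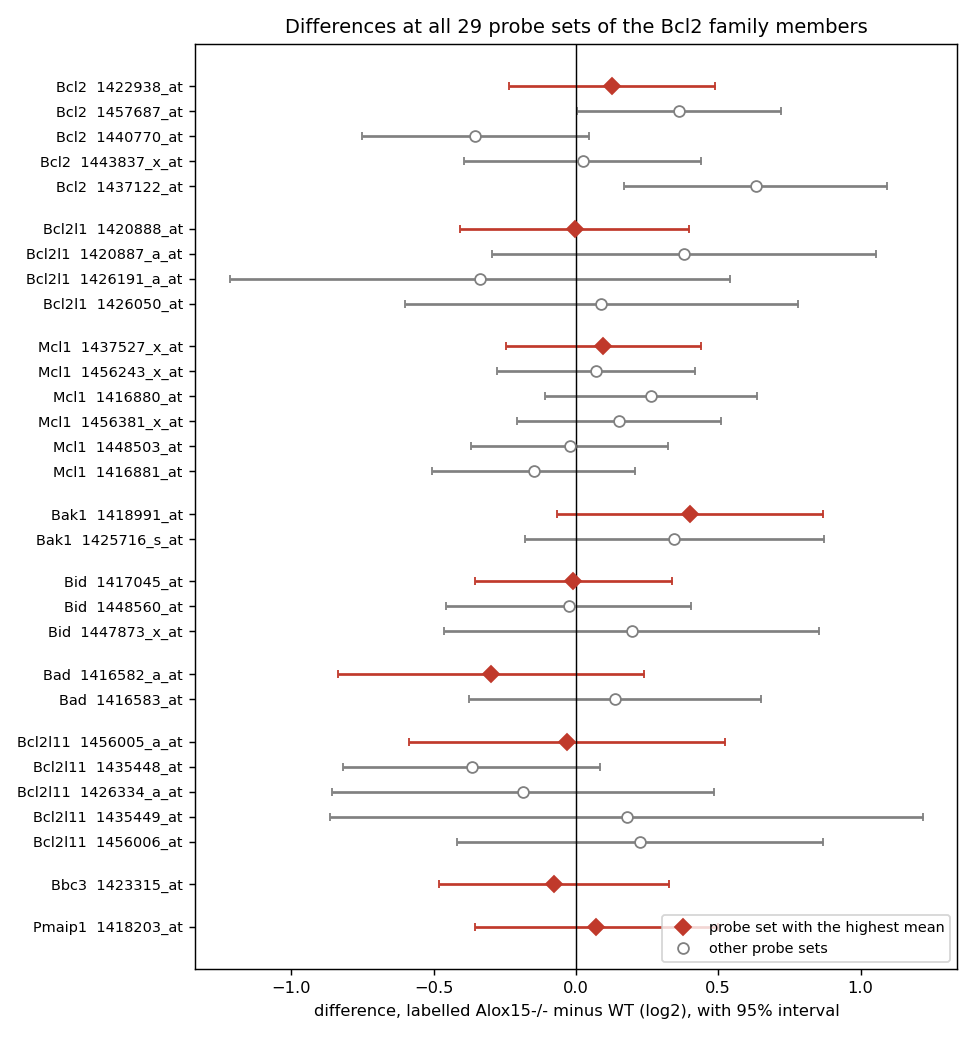
Difference between the arrays labelled Alox15-/- and WT (log2, horizontal axis) with its 95% interval from the limma fit over all named probe sets, for all 29 probe sets of the 9 members, ordered by gene and mean level. Diamonds mark the main probe set of each gene and open circles the others. Intervals of 27 probe sets include 0, and 2 of Bcl2 lie above it.

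Bcl2 held both probe sets with an unadjusted p under 0.05. At 1437122_at it read 7.75 and 8.07 on the arrays labelled Alox15-/-, against 7.40 and 7.16 in WT, a difference of 0.63 ± 0.18 (SE; limma adjusted p = 0.591 over all named probe sets, from an unadjusted 0.0164). At 1457687_at it read 10.56 and 10.52 on the arrays labelled Alox15-/-, against 10.11 and 10.25 in WT, a difference of 0.36 ± 0.14 (limma adjusted p = 0.647, from an unadjusted 0.0492).

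A further Bcl2 probe set had the other sign. At 1440770_at the gene read 8.81 and 9.04 on the arrays labelled Alox15-/-, against 9.34 and 9.21 in WT, with no overlap and a difference of -0.35 ± 0.16 (limma adjusted p = 0.676). At 1443837_x_at the difference was 0.02, with groups that overlapped. The Bcl2 gene had 3 probe sets with both arrays labelled Alox15-/- higher, 1 with both lower and 1 that overlapped. Over all named probe sets, groups did not overlap for 38.4%.

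Whether the probe sets of a gene differed from each other in this difference was tested after these values were seen, with limma's diffSplice over the 9012 genes that have more than 1 probe set. Bcl2 had F = 6.01 over its 5 probe sets, with an unadjusted p of 0.00492 and an adjusted p of 0.404 by diffSplice, so it did not pass. Of those genes 0.0888% passed the adjusted threshold and 7.51% had an unadjusted p under 0.05. The other 6 members with several probe sets had adjusted p from 0.827 to 0.996.

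**Figure D3:**
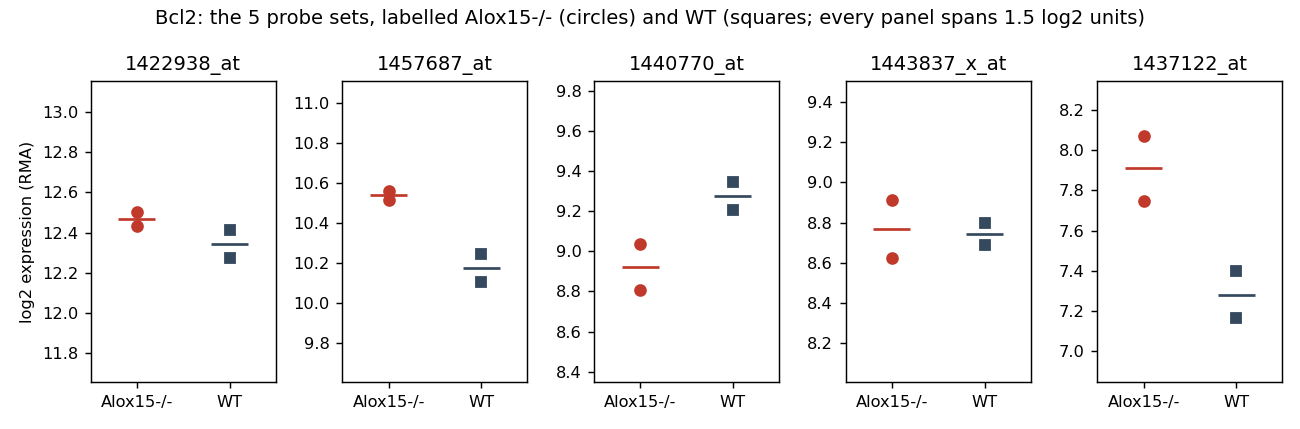
Log2 expression (RMA) of Bcl2 at its 5 probe sets, in falling order of mean level, with the arrays labelled Alox15-/- as circles on the left of each panel and WT as squares on the right; bars are group means and every panel spans 1.5 log2 units. The arrays labelled Alox15-/- lie above WT at 3 probe sets, below it at 1440770_at, and on either side of WT at 1443837_x_at.

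The probe sets of the other survival genes gave smaller or less even differences. For Mcl1, with 6 probe sets, differences ran from -0.15 to 0.26. Both arrays labelled Alox15-/- were higher at 4 and lower at 1, while groups did not overlap for 38.4% of all named probe sets. For Bcl2l1, with 4 probe sets, differences ran from -0.34 to 0.38, and groups overlapped at each. At 1 of these, 1426191_a_at, Bcl2l1 read 6.34 and 6.36 on the arrays labelled Alox15-/-, against 7.21 and 6.17 in WT, so that WT replicate 1 alone set the sign.

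Among BH3-only genes the 5 Bcl2l11 probe sets ran from -0.37 to 0.23. The most negative, 1435448_at, read 8.10 and 8.48 on the arrays labelled Alox15-/-, against 8.65 and 8.66 in WT, with no overlap (limma adjusted p = 0.690 over all named probe sets). The 3 Bid probe sets ran from -0.03 to 0.20, and the one at 0.20 lay below the bacterial limit on all 4 arrays.

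The rest of the family gave a like picture: of 17 further genes, 11 were measured and 0 passed the threshold, with 6 differences above 0 and 5 below and a median of 0.025. The pore-forming relative Bok had the largest, reading 7.34 and 7.30 on the arrays labelled Alox15-/-, against 6.91 and 6.43 in WT. Its difference was 0.66 ± 0.19 (SE; limma adjusted p = 0.583, from an unadjusted 0.0173), it was the 1 of the 11 with an unadjusted p under 0.05 (against 7.77% of all genes), and it had a single probe set. It was 0.42 without WT replicate 2 and 0.89 without WT replicate 1.

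Bcl2l2 (Bcl-w), another survival gene, read 9.24 and 9.10 on the arrays labelled Alox15-/-, against 9.38 and 9.62 in WT, with no overlap. The difference was -0.34 ± 0.15 (limma adjusted p = 0.677), and its other 3 probe sets gave -0.44, -0.38 and -0.04. At the probe set with -0.44 groups did not overlap (limma adjusted p = 0.615 over all named probe sets, from an unadjusted 0.0257). At -0.38 and -0.04 they overlapped. The BH3-only genes Bik, Bmf and Hrk differed by 0.24, 0.03 and -0.04 at the main probe set. Of the more distant relatives, Bcl2l12 differed by 0.15, Bcl2l13 by -0.18 (-0.02 without WT replicate 1, and 0.17 at its other probe set), Bcl2l14 by -0.01 and Bnip3, a hypoxia-induced mitophagy receptor, by -0.03. The Bcl2l12 value was 0.02 without WT replicate 1 or without Alox15-/- replicate 1, while its second probe set differed by 0.51, with no overlap (limma adjusted p = 0.591 over all named probe sets, from an unadjusted 0.0191). Bcl2l10 and Bcl2l15 lay below the bacterial limit on all 4 arrays, with measured differences of 0.18 and 0.15. Groups did not overlap for 5 of the 11 genes, 3 higher and 2 lower, against 38.5%, 21.4% and 17.1% of all genes. The Bcl2a1 genes, Bcl2l16 and Bnip3l were not analysed here.

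Downstream of the mitochondrial pore, 19 of 21 genes of the caspase machinery were measured and 0 passed the threshold, with 1 higher and 1 lower at an unadjusted limma p under 0.05 (4.2% and 3.57% of all genes). Their median difference was 0.029. Dffb, the nuclease that cuts DNA in dying cells, read 8.19 and 8.45 on the arrays labelled Alox15-/-, against 7.72 and 7.94 in WT, and differed by 0.49 (limma adjusted p = 0.622). The executioner caspase gene Casp6 read 7.53 and 7.47 on the arrays labelled Alox15-/-, against 7.85 and 7.97 in WT, and differed by -0.41 (limma adjusted p = 0.618). Its second probe set gave 0.09. Birc2, an inhibitor of apoptosis protein, differed by -0.24.

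Upstream, 9 of 10 genes of the death receptor pathway, which reaches the mitochondrion through Bid, were measured, with 0 past the threshold, 0 at an unadjusted limma p under 0.05 and a median of 0.11. The largest were Fasl, the Fas ligand, at 0.35 but below the bacterial limit on all 4 arrays, the adaptor Tradd at 0.32 (-0.11 and -0.31 at other probe sets) and the receptor Tnfrsf1a at 0.28. Fas itself also lay below the bacterial limit on all 4 arrays.

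Of 14 enzymes and binding proteins that act on the family's proteins, 13 were measured, with 0 past the threshold and 0 at an unadjusted limma p under 0.05, and a median of -0.004. The Bad kinase gene Pim3 differed by -0.35, Fbxw7, part of a ubiquitin ligase for Mcl1, by 0.32, and the JNK gene Mapk8 by -0.31. One other Mapk8 probe set read 5.34 and 5.81 on the arrays labelled Alox15-/-, against 6.97 and 6.80 in WT, a difference of -1.31 with no overlap (limma adjusted p = 0.478 over all named probe sets, from an unadjusted 0.00112). The other 3 gave -0.20, 0.13 and 0.25. The strip plot of the lists shows that the cell death lists centred near the median of all genes.

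**Figure D4:**
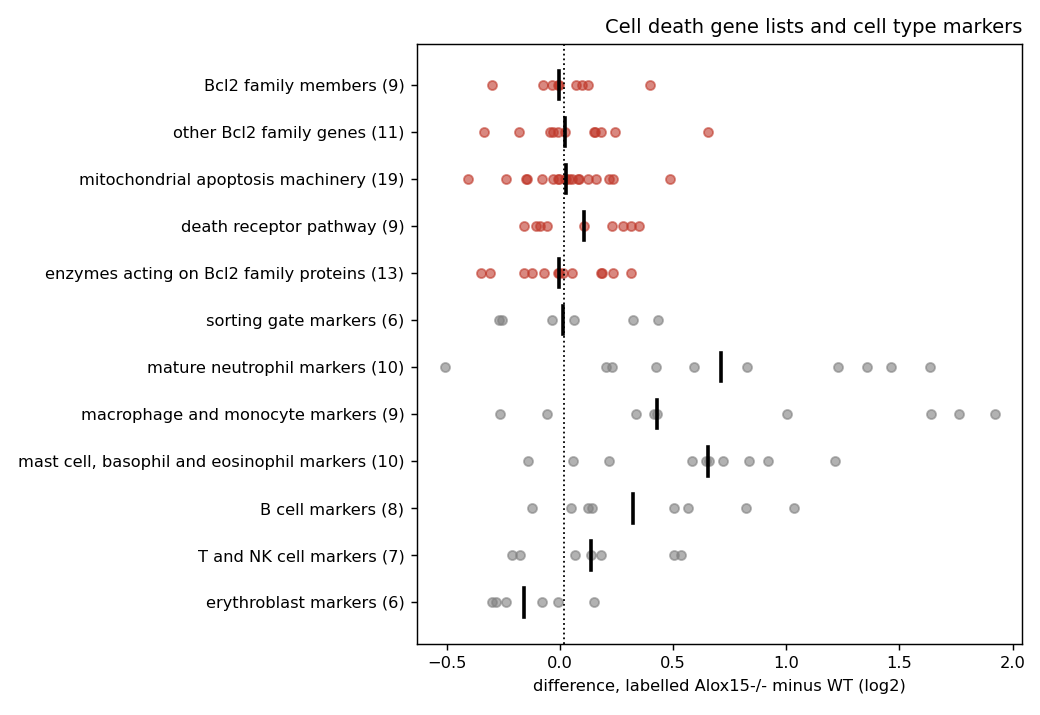
Difference between the arrays labelled Alox15-/- and WT (log2, horizontal axis) for each measured gene of 12 lists, 1 point per gene, with the number measured in brackets, the list's median as a black bar and the median of all genes as a dotted line. Cell death lists are in red and cell type markers in grey. Medians of the 5 cell death lists lie between -0.005 and 0.11, and that of the mature neutrophil markers at 0.71.

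Markers of other blood cells were also compared, with 0 past the threshold, and the neutrophil, macrophage, mast cell and B cell lists had median differences of 0.71, 0.43, 0.65 and 0.32. At an unadjusted limma p under 0.05, 4.2% of all genes were higher. Among the markers, 4 of 10 neutrophil, 4 of 9 macrophage and monocyte and 5 of 10 mast cell, basophil and eosinophil genes were higher. So were 1 of 8 B cell, 1 of 7 T and NK cell and 0 of 6 erythroblast markers. The neutrophil marker Itgam was lower. Those counted as higher include Mmp8 and Fcer1a, below the bacterial limit on all 4 arrays, Prg2, below it on 3, and Ccr2, below it on both WT arrays. Of 13 mature neutrophil markers 10 were measured and 9 were above 0, with summed intensities of 2828 and 2198 on the arrays labelled Alox15-/-, against 759 and 1544 in WT. S100a8 differed by 1.64 and S100a9 by 1.46 (limma adjusted p = 0.618 and 0.575), and without WT replicate 1 they differed by 0.80 and 0.91, without WT replicate 2 by 2.47 and 2.02. For macrophage and monocyte markers 7 of 9 measured were above 0 and the sums were 1917 and 1269 on the arrays labelled Alox15-/-, against 834 and 980 in WT, with F13a1 at 1.76 and Mrc1 at 1.92. Mrc1 lay below the bacterial limit on WT replicate 1. C1qb, the brightest on Alox15-/- replicate 1, read 9.53 and 6.23 on the arrays labelled Alox15-/-, against 4.92 and 7.55 in WT. Csf1r, the brightest by mean, differed by 0.34, with groups that overlapped. Cd68 differed by -0.27, with no overlap, and Adgre1 by -0.06. Mast cell, basophil and eosinophil markers were above 0 for 9 of 10 and summed to 873 and 929 on the arrays labelled Alox15-/-, against 711 and 467 in WT. Prg2 differed by 1.22, but lay below the bacterial limit on 3 arrays. Siglecf differed by 0.72, and Mcpt8 by 0.65 with groups that overlapped. B cell markers, with 7 of 8 above 0, summed to 3102 and 2876 on the arrays labelled Alox15-/-, against 1816 and 1901 in WT. Vpreb1 read 10.69 and 9.46 on the arrays labelled Alox15-/-, against 8.79 and 9.30 in WT. Ighm read 9.81 and 10.69, against 9.88 and 9.61, with groups that overlapped. The brightest marker of this sum was thus Vpreb1 on Alox15-/- replicate 1 and Ighm on Alox15-/- replicate 2. Blnk differed by 0.82, with WT replicate 1 below the bacterial limit. T and NK cell markers, with 5 of 7 above 0, summed to 890 and 858 on the arrays labelled Alox15-/-, against 671 and 680 in WT. Nkg7 alone gave 642 and 570 of this on the arrays labelled Alox15-/-, against 423 and 429 in WT, and the rest of the list 248 and 288, against 248 and 251. Cd3e, Cd3g and Cd5 lay below the bacterial limit on all 4 arrays. Erythroblast markers, with 1 of 6 above 0, summed to 1343 and 1410 on the arrays labelled Alox15-/-, against 1570 and 1640 in WT, of which Tfrc alone gave 957 and 1069, against 1216 and 1168. Epb42 differed by -0.30, with groups that overlapped. Below the bacterial limit on all 4 arrays were also Adgre1, Epx, Mcpt4, Ms4a1 and Hba-a1. The part of these markers, and of the Gapdh end gap, in the differences of Bak1, Bok and the Bcl2 probe sets was not tested.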

How the data were processed

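The deposited table gives 1 log2 value per probe set and array. Per the submitters' processing notes, the authors made these log2 values with Affymetrix Expression Console 1.1 and RMA, a method of background correction, quantile normalization and probe set summary; replicates were not pooled and no genome build is named. The labels' protocols describe a whole-transcript sense labelling kit. The number of arrays, 2 per group, limits the precision.

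The platform annotation served to name probe sets: 34958 had 1 symbol, 932 several and 9211 none there. Differences are arrays labelled Alox15-/- minus WT, from two-sided moderated linear models (eBayes after lmFit, without a block, limma 3.58.1, R 4.3.3) over 18194 genes, or over all named probe sets for probe sets other than the main one, with p adjusted by Benjamini-Hochberg and called under 0.05. No filter on dim genes was used. Summed intensities are sums of 2 to the power of the log2 value. Code was tested on simulated data. Figures used matplotlib 3.10.9.

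Members and gene lists were chosen with earlier results of these data known. Named genes were all members, the measured rest of the family, the 3 genes of each cell death list with the largest difference, the 3 genes nearest to the member with the largest difference, and per marker list those highest in level or difference. Kit, Flt3, Fas, Itgam, C1qb and markers below the bacterial controls were named outside that rule. Alternatives covered probe set choice, normalization, a filter, variance moderation, array weights, a replicate block and leaving out each array.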

Additional observations from a re-analysis of the deposited data

How the results depend on the processing

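None of the Bcl2 family members passed the threshold under any of the other settings in which they were tested, 14 for 8 members and 13 for Pmaip1 (limma, adjusted p under 0.05), and neither did any of the 56 named genes (members included) other than Alox15. Genes named outside the rule, among them Kit, Flt3, Fas, Itgam and C1qb, are not in the 56 and were not followed over these settings. The filter on dim genes left 7 of the 56 out of its own setting, Pmaip1 among them. Over all genes the count was 1, Alox15, as it was with the replicate block, which gave 0 members. It was 2 with every probe set tested, 22 with a mean-dependent prior variance and 0 without any 1 array, fits with few degrees of freedom in which the lone array is assumed to vary like the other group. Without moderation the count was again 1, but the gene was Rac2. Same-numbered arrays did not deviate together (r = -0.02 over 18194 genes, which are not independent), so the numbers were not taken as pairs. The median of the members ran from -0.03 to -0.003 over the 10 settings that kept all arrays and from 0.005 to 0.09 without 1 array. With the median over probe sets the sign turned for Bcl2 (-0.35, that of 1440770_at, which is the middle probe set by level), Bcl2l1 (0.0181), Bmf (-0.21), Tradd (-0.11), Tfrc (0.17), Cd4 (0.14) and Cd8a (-0.0725). Without 1 array the range crossed 0 for Bcl2l1 (-0.12 to 0.11), Bid (-0.0413 to 0.0213), Bcl2l11 (-0.31 to 0.25), Bbc3 (-0.18 to 0.0263), Pmaip1 (-0.0806 to 0.22), Bcl2l14 (-0.28 to 0.26), Bmf (-0.14 to 0.19), Bnip3 (-0.21 to 0.15), Hrk (-0.14 to 0.0525), Fasl (-0.28 to 0.99), Tradd (-0.0263 to 0.66), Alas2 (-0.28 to 0.26) and Ermap (-1.04 to 0.48). Bcl2 (0.06 to 0.20), Mcl1 (0.08 to 0.11), Bak1 (0.20 to 0.61) and Bad (-0.57 to -0.03) kept their sign without any 1 array. The cause of these changes was not tested. Only Pmaip1 among the measured members lay below the bacterial limit on all 4 arrays at its main probe set. The Bcl2l1 probe set 1426050_at and the Bid probe set 1447873_x_at, neither a main one, also lay below it on all 4 arrays.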
